A study of Mus musculus with 6 samples.

Results

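Adh1, Adh4, Adh5, Aldh2, Aldh1a1, Aldh1a7, Aldh3a2, Rdh16, Dhrs3, and Lrat are 10 genes of alcohol, aldehyde, and retinol metabolism, and they were examined in mouse liver after silencing of Rnf10. They were chosen by name among the 55487 genes of the count table, with earlier results of these data known. All 10 had enough counts to be among the 14046 genes tested. The liver transcriptomes are those of 3 mice that received GalNAc-siRnf10 and 3 that received GalNAc-siNC, each mouse giving 1 library. GalNAc is a sugar ligand that carries a conjugated siRNA to hepatocytes through the asialoglycoprotein receptor, GalNAc-siRnf10 carries an siRNA against Rnf10, which encodes an E3 ubiquitin ligase, and GalNAc-siNC carries a control siRNA. All 6 animals were wild-type C57BL/6J males on a normal chow diet, injected subcutaneously, and their livers were collected at 17 weeks of age. The dose was not given in the sources used here, all libraries carried the same batch label, and the study used the comparison to look for effects of the siRNA beyond its target.

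Alcohol dehydrogenases oxidize ethanol, retinol, and other alcohols to aldehydes, and aldehyde dehydrogenases oxidize those aldehydes to acids, so that ethanol becomes acetate and retinol becomes retinoic acid by parallel chemistry. The liver carries out most of the body's ethanol oxidation, and it also holds most of the body's vitamin A, as retinyl esters in stellate cells. Retinoic acid binds nuclear receptors and induces, among other genes, enzymes that limit its own level.

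Values are normalized read counts, which are counts scaled by the TMM method to the mean effective library size, and each mean is given ± SD with n = 3 mice. The total count per library was between 26854377 and 33058645, and 3 counts, taken as the detection floor for counting error, correspond to 9.07e-06% to 1.12e-05% of a library. Every count of a member in every library lay above that floor, from 124 for Lrat to 53960 for Aldh2. Rnf10 itself was 4148 ± 347 after GalNAc-siNC and 1784 ± 41.8 after GalNAc-siRnf10 (log2 fold change -1.22, edgeR adjusted p = 3.29e-09), with no overlap between the groups. GalNAc-siNC mouse 1 stood apart from its group. The chi-square per gene was 30.0 to 30.7 between it and the other GalNAc-siNC mice. It was 10.3 between those mice and 4.70 to 5.37 among the GalNAc-siRnf10 mice. Values without GalNAc-siNC mouse 1 are therefore given beside those of each member and of some other genes. Not every list gene whose call or size turned on this mouse is shown. Albumin took 3.72% to 4.36% of the counts in the GalNAc-siNC libraries and 5.93% to 6.08% in the GalNAc-siRnf10 libraries.

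Of the 10 genes, Adh1, Rdh16, Aldh3a2, and Aldh1a1 rose and Dhrs3 fell in the livers of GalNAc-siRnf10 mice. Adh4, Adh5, Aldh2, Aldh1a7, and Lrat did not pass the test. A gene was called changed at a Benjamini-Hochberg adjusted p under 0.05 in edgeR's quasi-likelihood test across all genes. Thus 4 of 10 members were called higher, where 6.71% of all tested genes were called higher. For lower calls it was 1 of 10, where 7.28% of all tested genes were called lower, or 14.0% in either direction. The 10 genes and the gene lists used below were chosen with earlier results known, so such shares are no test of a set. The median log2 fold change of the 10 members was 0.18, beside 0.0022 over all tested genes. For 9 members the mice of the groups lay fully apart in normalized counts, 6 with all GalNAc-siRnf10 mice higher and 3 with all lower. The same holds for 32.8% of all tested genes, 16.5% with all GalNAc-siRnf10 mice higher and 16.4% with all lower. Summed over the 10 genes, the normalized counts were 142868 to 156836 in GalNAc-siNC mice and 183281 to 184053 in GalNAc-siRnf10 mice. Adh1, Aldh2, and Aldh1a1 hold most of that sum, so it does not describe the other members. For a single gene, an exact two-sided permutation test of 3 mice against 3 cannot go below p = 0.1, and it gave that p for each member except Lrat. Without GalNAc-siNC mouse 1, 4 members were called higher and 2 lower, the second being Adh4.

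**Figure D1:**
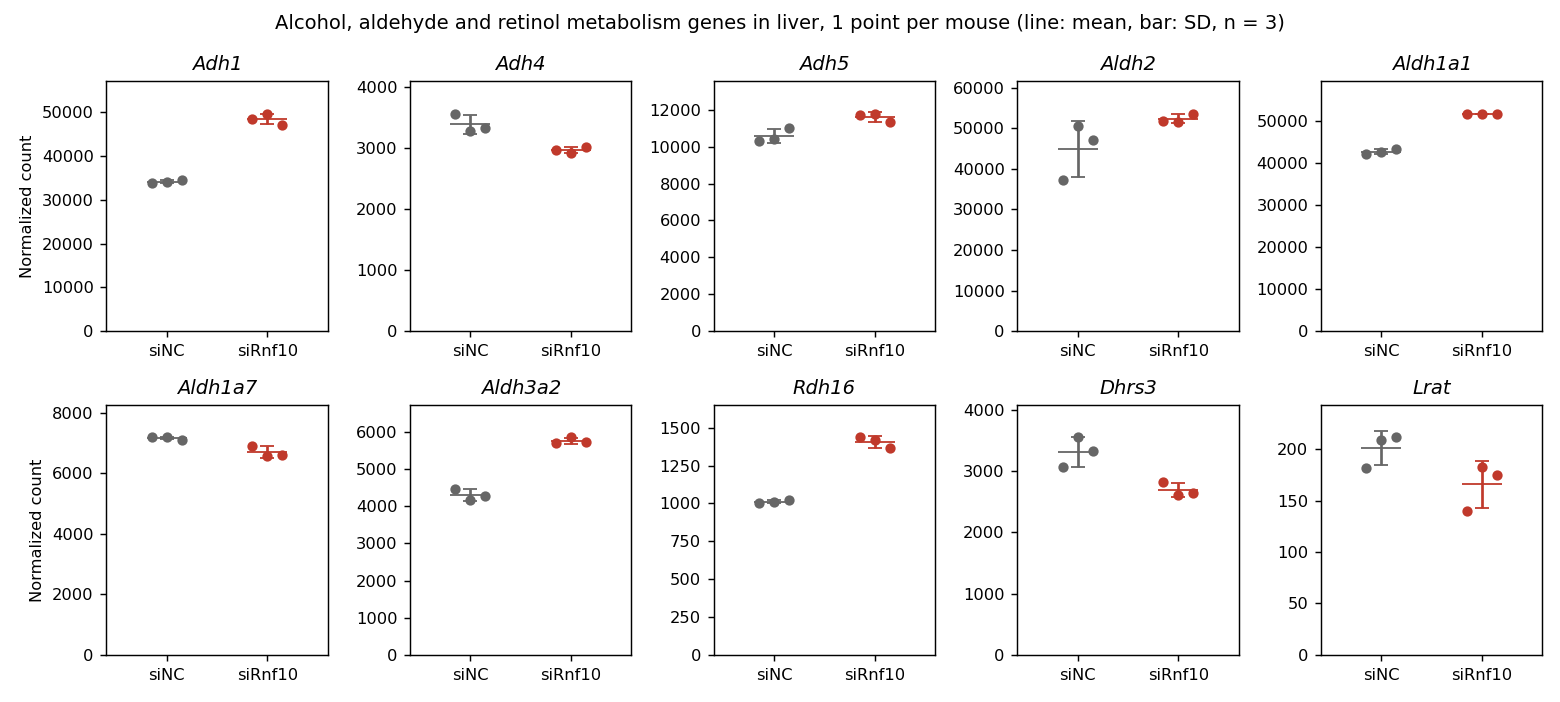
Normalized counts of the 10 genes in each mouse, one panel per gene, with a separate vertical axis that starts at 0. Points are mice and the bar is the group mean with its SD; the groups are apart in every panel but that of Lrat, and GalNAc-siNC mouse 1 is the low point for Aldh2.

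The alcohol dehydrogenase genes lie in 1 cluster on chromosome 3 (GRCm38), all on the plus strand, with Adh7 at chr3:138217760-138233382, Adh1 at chr3:138260991-138290698, Adh4 at chr3:138415466-138430892, and Adh5 at chr3:138443093-138455499. The coding sequences of the 3 members there differ clearly, with 67.0% of aligned bases identical between Adh1 and Adh4, 67.7% between Adh1 and Adh5, and 64.8% between Adh4 and Adh5. Their values lay in different directions.

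Adh1, the class I enzyme that carries most hepatic ethanol oxidation and also acts on retinol, had the largest log2 fold change among the members, except with GC content and length offsets, where it was 0.44, below Rdh16 (0.49) and Aldh3a2 (0.46). Its normalized counts were 33842, 34093, and 34566 in the GalNAc-siNC mice and 48478, 49671, and 47190 in the GalNAc-siRnf10 mice. Every treated mouse was above every control, with little spread inside either group. The means were 34167 ± 368 and 48446 ± 1241, a rise of 41.8% (log2 fold change 0.50, SE 0.0489, edgeR adjusted p = 1.47e-06, and 0.50 without GalNAc-siNC mouse 1). Adh1 shares 136 exon bases with Gm16559 on the opposite strand, a gene with 70 to 130 counts per library. The strand setting of the counting was not given in the sources used here, and those counts are far fewer than the difference in Adh1.

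Adh4, the class II enzyme, which also oxidizes retinol, stood at 3563, 3279, and 3328 in GalNAc-siNC mice and at 2968, 2922, and 3011 in GalNAc-siRnf10 mice. The groups did not overlap, with all treated mice lower. The means were 3390 ± 152 and 2967 ± 44.4, and the log2 fold change of -0.19 (SE 0.0632) had an adjusted p of 0.0524 in edgeR, just outside the threshold. It was called without GalNAc-siNC mouse 1 (log2 fold change -0.16, adjusted p = 0.0353) and without GalNAc-siNC mouse 2 (-0.22, adjusted p = 0.0348). It was also called lower under 6 other settings, among them limma voom (-0.18, adjusted p = 0.0346), upper-quartile scaling (-0.20, 0.0479), and GC content and length offsets (-0.35, 0.000115).

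Adh5, the class III enzyme, which clears formaldehyde bound to glutathione, had 10296, 10389, and 10986 normalized counts in the controls and 11726, 11785, and 11323 after GalNAc-siRnf10. All treated mice were higher, by less than for Adh1. The means of 10557 ± 375 and 11611 ± 252 differed by a log2 fold change of 0.14 (SE 0.0543), which did not pass the edgeR test (adjusted p = 0.108, and 0.0577 without GalNAc-siNC mouse 1). With GC content and length offsets it was called higher (0.17, adjusted p = 0.0199).

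Ratios between the genes of the cluster lay apart in the groups. The ratio of Adh1 to Adh4, in normalized counts per kilobase of gene model, was 6.17, 6.75, and 6.74 in GalNAc-siNC mice and 10.6, 11.0, and 10.2 in GalNAc-siRnf10 mice. The ratio of Adh1 to Adh5 was 7.96, 7.95, and 7.62 in the controls and 10.01, 10.21, and 10.09 in the treated mice. Both ratios were higher in every treated mouse than in every control. For Adh1 to Adh4 this had to be so, since all treated mice were higher for Adh1 and lower for Adh4. A ratio within a library does not depend on how libraries are scaled to each other, but it shows unequal change and not which of the genes moved.

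Aldh2, on the minus strand at chr5:121566027-121593824, encodes the mitochondrial enzyme that oxidizes acetaldehyde from ethanol. Its normalized counts were 37201, 50473, and 47084 after GalNAc-siNC and 51842, 51593, and 53606 after GalNAc-siRnf10. The treated mice lay close together and above all controls, while the controls were spread widely because GalNAc-siNC mouse 1 was low. The means were 44919 ± 6896 and 52347 ± 1097 (log2 fold change 0.22, SE 0.103, edgeR adjusted p = 0.225). Without GalNAc-siNC mouse 1 the log2 fold change was 0.10, with an adjusted p of 0.0742. It was called higher with no filter on low counts (0.22, adjusted p = 0.00142) and with offsets and replicate block together (0.35, 0.0251). Aldh2 shares 130 exon bases with Gm42879 on the opposite strand, which had 4 to 15 counts per library.

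Aldh1a1, the cytosolic enzyme that turns retinal into retinoic acid, lies on the plus strand at chr19:20492715-20643465, next to Aldh1a7, its mouse paralog, on the minus strand at chr19:20692953-20727562. The coding sequences of the pair are identical at 1377 of 1503 bases (91.6%), and 3.06% of the 50-base stretches in Aldh1a1 transcripts also occur in Aldh1a7, or 7.49% of those in Aldh1a7 in the other direction. A share of reads that cover such stretches cannot be assigned to 1 gene. The first 60 coding bases of each gene, read from the GRCm38 genome, show how reads of these genes are told apart, and capitals mark the 3 positions at which they differ. The Aldh1a1 stretch is chr19:20602012-20602071 on the plus strand, and the Aldh1a7 stretch is chr19:20727453-20727512 on the minus strand.
Aldh1a1: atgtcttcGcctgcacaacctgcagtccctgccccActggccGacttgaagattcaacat
Aldh1a7: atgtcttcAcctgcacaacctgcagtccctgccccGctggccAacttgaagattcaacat

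Of the pair, Aldh1a1 passed the test and Aldh1a7 passed it only under GC content and length offsets. Aldh1a1 had 42068, 42492, and 43222 normalized counts in GalNAc-siNC mice and 51536, 51460, and 51631 in GalNAc-siRnf10 mice. Both groups were tight and far apart. The means were 42594 ± 584 and 51543 ± 85.7, a rise of 21.0% (log2 fold change 0.28, SE 0.0475, edgeR adjusted p = 0.000695, and 0.26 without GalNAc-siNC mouse 1).

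Aldh1a7 had 7180, 7181, and 7109 normalized counts in the controls and 6907, 6550, and 6609 in the treated mice. All treated mice were lower, but the difference was small, with means of 7157 ± 41.0 and 6689 ± 192 (log2 fold change -0.10, SE 0.0553, edgeR adjusted p = 0.277, and -0.097 with 0.153 without GalNAc-siNC mouse 1). With GC content and length offsets it was called lower, at -0.20 (adjusted p = 0.0025, and 0.00577 with the replicate block). The ratio of Aldh1a1 to Aldh1a7 per kilobase was 2.45, 2.48, and 2.54 in the controls and 3.12, 3.29, and 3.27 after GalNAc-siRnf10. Every treated mouse was above every control, which had to be so with Aldh1a1 higher and Aldh1a7 lower in all treated mice.

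Aldh3a2, on the minus strand at chr11:61223417-61267464, encodes the microsomal fatty aldehyde dehydrogenase. Its normalized counts were 4472, 4162, and 4281 in GalNAc-siNC mice and 5709, 5855, and 5737 in GalNAc-siRnf10 mice. The groups were widely separated. The means of 4305 ± 156 and 5767 ± 77.6 correspond to a rise of 34.0% (log2 fold change 0.42, SE 0.0587, edgeR adjusted p = 8.62e-05, and 0.45 without GalNAc-siNC mouse 1). None of its 50-base stretches occurred in another gene.

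Rdh16, on the plus strand at chr10:127801152-127846565, encodes a microsomal dehydrogenase of the short-chain family that acts on retinol and on hydroxysteroids. It had 1006, 1010, and 1022 normalized counts in the controls and 1437, 1418, and 1363 in the treated mice. The controls were almost equal, and every treated mouse was well above them. The means were 1013 ± 8.07 and 1406 ± 38.2, a rise of 38.8% (log2 fold change 0.47, SE 0.0716, edgeR adjusted p = 0.000204, and 0.47 without GalNAc-siNC mouse 1).

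Rdh16 belongs to a family of near-identical copies, so its counts carry some uncertainty. Of its 50-base stretches, 14.5% occur in another gene, with 6.28% in Rdh9, 6.04% in Rdh18-ps, 5.88% in Rdh16f1, and none in Rdh16f2. It also shares 381 exon bases with Rdh18-ps on its own strand, which had 1 to 8 counts. Rdh16f1 had no count in any library, Rdh1 was at 2 to 16 normalized counts and was not tested, and Rdh9 was at 176 ± 37.5 and 200 ± 16.0 (log2 fold change 0.19, edgeR adjusted p = 0.50). Rdh16f2, whose coding sequence is 91.8% identical to that of Rdh16, was the more abundant copy. It had 2405, 2658, and 2886 normalized counts in GalNAc-siNC mice and 3631, 3934, and 3613 in GalNAc-siRnf10 mice, with no overlap. Its log2 fold change was 0.49 (edgeR adjusted p = 0.00018), beside 0.47 for Rdh16. The ratio of Rdh16 to Rdh16f2 per kilobase was 0.0782 ± 0.00659 in the controls and 0.0769 ± 0.00359 in the treated mice, and the groups overlapped. The size of this ratio depends on the gene model lengths, which are 6217 bases for Rdh16 and 1265 for Rdh16f2.

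The first 60 coding bases of both genes are printed to show the 10 positions, in capitals, at which their reads can be told apart. The Rdh16 stretch is chr10:127801198-127801257 and the Rdh16f2 stretch is chr10:127866556-127866615, both on the plus strand of GRCm38.
Rdh16: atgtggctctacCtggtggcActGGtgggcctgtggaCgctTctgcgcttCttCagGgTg
Rdh16f2: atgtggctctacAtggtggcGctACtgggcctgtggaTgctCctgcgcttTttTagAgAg

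Since these copies rose by a like amount, the RefSeq promoters of both (GRCm38.p6, 250 bases before to 50 after the start site) are also given. Rdh16 is at chr10:127800903-127801202 and Rdh16f2 at chr10:127866226-127866525, both on the plus strand, and 65.9% of the aligned bases were identical. Capitals mark AGGTCA on either strand, the half-site of the retinoic acid receptor and of related nuclear receptors. Rdh16 holds 1, on the minus strand, and Rdh16f2 holds 2.
Rdh16: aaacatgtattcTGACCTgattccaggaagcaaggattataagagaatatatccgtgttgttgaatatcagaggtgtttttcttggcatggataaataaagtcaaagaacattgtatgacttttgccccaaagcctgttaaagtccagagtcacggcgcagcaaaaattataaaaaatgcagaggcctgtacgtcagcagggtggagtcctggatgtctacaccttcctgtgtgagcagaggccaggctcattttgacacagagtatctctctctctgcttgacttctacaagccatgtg
Rdh16f2: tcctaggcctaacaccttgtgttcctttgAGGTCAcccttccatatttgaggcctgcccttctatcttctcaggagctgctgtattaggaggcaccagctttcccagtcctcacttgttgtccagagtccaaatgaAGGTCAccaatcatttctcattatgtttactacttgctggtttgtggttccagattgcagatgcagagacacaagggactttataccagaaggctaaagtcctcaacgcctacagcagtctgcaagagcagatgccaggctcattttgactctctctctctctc

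AGGTCA occurs in 16.3% of the 32851 promoters of the same length, so its presence in any 1 promoter is common. Promoter sequences were matched for 9 of the 10 members, with 13 promoters in all, and Aldh2 had no entry. Of these 9 genes, 2 hold AGGTCA, namely Adh4 with 2 copies and Rdh16 with 1. The direct repeats searched were pairs of half-sites on the same strand, with AGGTCA and AGTTCA among the half-sites allowed. A pair could be like or mixed, with 1, 2, or 5 bases between its half-sites, the spacings that retinoic acid receptors are known to bind. No member's promoter held such a pair. This says only that these pairs are not in these windows.

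Dhrs3, on the plus strand at chr4:144892827-144928209, encodes an enzyme that works in the opposite direction and reduces retinal back to retinol. It was the member called lower. Its normalized counts were 3058, 3549, and 3324 in GalNAc-siNC mice and 2822, 2616, and 2637 in GalNAc-siRnf10 mice. The groups did not overlap, although the lowest control was near the highest treated mouse. The means were 3310 ± 246 and 2692 ± 114 (log2 fold change -0.30, SE 0.0701, edgeR adjusted p = 0.00813, and -0.35 without GalNAc-siNC mouse 1). The call depended on single animals, since the adjusted p was 0.0693 without GalNAc-siRnf10 mouse 2 and 0.0690 without GalNAc-siRnf10 mouse 3, both with a log2 fold change of -0.28. The ratio of Rdh16 to Dhrs3 per kilobase was 0.145 ± 0.0105 in the controls and 0.246 ± 0.00811 in the treated mice, with no overlap. That separation had to be so, since all treated mice were higher for Rdh16 and lower for Dhrs3.

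Lrat, on the minus strand at chr3:82892579-82903973, encodes lecithin retinol acyltransferase, which esterifies retinol for storage, chiefly in stellate cells. Its normalized counts were 182, 209, and 211 in the controls and 140, 183, and 175 in the treated mice. The groups overlapped, because the highest treated mouse was above the lowest control. The means were 201 ± 16.5 and 166 ± 22.6 (log2 fold change -0.27, SE 0.145, edgeR adjusted p = 0.245, exact permutation p = 0.2). The log2 fold change was -0.34 without GalNAc-siNC mouse 1 (adjusted p = 0.118) and -0.17 without GalNAc-siRnf10 mouse 1 (0.61), and with 1 mouse left out it ranged from -0.35 to -0.17. As the member with the fewest counts, Lrat also had the widest error. Stellate cell markers other than Lrat gave 5 of 14 called higher and none lower (none at an unadjusted p under 0.05 in edgeR, and none in DESeq2 or voom), a median of 0.30 on the log2 scale, and a summed level of 2812 to 2893 in GalNAc-siNC mice and 3371 to 3572 in GalNAc-siRnf10 mice. Relative to that sum, Lrat was 6.29%, 7.45%, and 7.37% in the controls and 3.92%, 5.42%, and 5.13% in the treated mice, with no overlap. The sum holds the 5 markers called higher, so this separation partly restates their rise, and the counts of Lrat alone overlapped. In bulk liver, fewer cells of a type and less RNA per cell cannot be told apart.

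**Figure D2:**
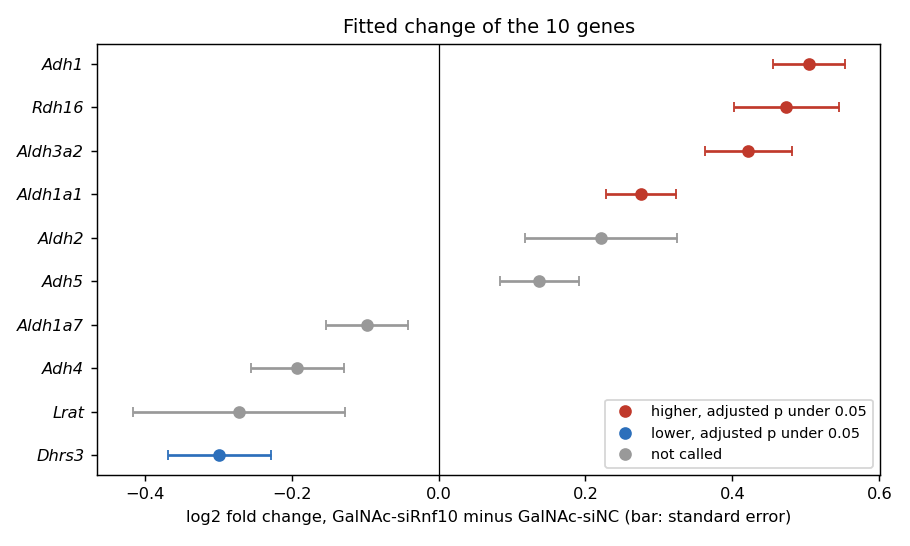
Log2 fold change of each of the 10 genes, GalNAc-siRnf10 minus GalNAc-siNC, with bars for the standard error of the edgeR fit and colours for the call. Adh1, Rdh16, Aldh3a2, and Aldh1a1 lie to the right of 0 and Dhrs3 to the left, and the bar of Lrat is the widest, with an SE of 0.145.

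Levels between genes were compared per kilobase of the deposited gene model. In GalNAc-siNC livers the order was Adh1 (15301 normalized counts per kilobase), Aldh2 (8763), Aldh1a1 (8628), Aldh1a7 (3464), Adh4 (2338), Adh5 (1952), Dhrs3 (1131), Aldh3a2 (766), Rdh16 (163), and Lrat (37.5). Aldh2 and Aldh1a1 were the only neighbours in that order whose mice overlapped. The order also depends on the gene model lengths, which the spread between mice does not measure. Adh5 had more normalized counts than Adh4 (10557 and 3390) but a longer model (5408 and 1450 bases). Adh1 ranked 94 among the 14046 tested genes, Aldh2 157, and Aldh1a1 160, whereas Rdh16 ranked 4573 and Lrat 9045. The 3 most abundant members thus act in cytosolic alcohol oxidation, mitochondrial acetaldehyde oxidation, and retinal oxidation, and the gene for retinol esterification was the least abundant in whole liver.

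Among the other genes of these pathways, 70 were listed and 51 tested, of which 13 were called higher and 8 lower, with a median log2 fold change of 0.068. The genes called in the alcohol and aldehyde oxidation groups were all higher, those called among retinoid carriers and ester genes were mixed, and those called in retinoic acid breakdown and reception were all lower. In the group of other alcohol dehydrogenases and ethanol oxidation, 4 of 6 tested genes were called higher, the fourth being Akr1a1, an aldehyde reductase (log2 fold change 0.26, edgeR adjusted p = 0.0121). None was lower at an unadjusted p under 0.05. Cyp2e1, the cytochrome P450 that also oxidizes ethanol, had 185929, 176686, and 178417 normalized counts in GalNAc-siNC mice and 222785, 220081, and 217649 in GalNAc-siRnf10 mice, so all treated mice were higher (log2 fold change 0.29, edgeR adjusted p = 0.000326). Adh7, the class IV retinol-active enzyme at the edge of the Adh cluster, rose by 31.1%, from 834 ± 82.4 to 1093 ± 44.6 (adjusted p = 0.0053). Catalase (Cat), which can oxidize ethanol in peroxisomes, rose by 12.8% (log2 fold change 0.17, adjusted p = 0.0221), and its call was lost in DESeq2 (adjusted p = 0.0586), with library size only (0.123), and without GalNAc-siNC mouse 3 (0.0859) or any 1 GalNAc-siRnf10 mouse (0.121 to 0.137).

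Among the other aldehyde dehydrogenases and aldehyde oxidases, 4 of 14 tested genes were called higher, and none was lower at an unadjusted p under 0.05. Aldh1b1, a mitochondrial enzyme close to Aldh2, had 1960 ± 311 normalized counts in the controls and 2550 ± 81.3 in the treated mice (log2 fold change 0.38, edgeR adjusted p = 0.018). Its call was lost without GalNAc-siRnf10 mouse 2 (adjusted p = 0.0719) or mouse 3 (adjusted p = 0.0855). The others called were Aldh7a1 (0.27), Aox1 (0.24), and Aldh1l1 (0.19), with log2 fold changes in parentheses, and Aldh1l1 was not called in DESeq2 (adjusted p = 0.0927).

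Of 11 tested retinol and retinal oxidoreductases outside the 10 genes, only Rdh16f2 was called higher and only Rdh11 was called lower. Rdh11, a microsomal retinal reductase, fell from 1793 ± 89.7 to 1235 ± 100 (log2 fold change -0.54, edgeR adjusted p = 0.000137), the same direction as Dhrs3, which shares its activity. Rdh7, the most abundant relative of Rdh16 in the list, was at 32600 ± 2300 and 34056 ± 820 (adjusted p = 0.529). Retsat, of the same list, was at 6694 ± 328 and 5917 ± 76.3, with all treated mice lower (log2 fold change -0.18, edgeR adjusted p = 0.0527). Retsat was called lower in voom (adjusted p = 0.00845) and without GalNAc-siNC mouse 1 (-0.22, 0.000502), but not in DESeq2 (0.0839).

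For retinoid carriers, uptake, and ester handling, 4 of 11 tested genes were called higher and 2 lower. Rbp4, which carries retinol out of the liver in plasma, had 48778, 62829, and 67268 normalized counts in GalNAc-siNC mice and 91880, 90797, and 87788 in GalNAc-siRnf10 mice. All treated mice were higher, and GalNAc-siNC mouse 1 was again the lowest. The log2 fold change was 0.60 (edgeR adjusted p = 0.0169) and 0.47 without GalNAc-siNC mouse 1 (1.73e-12), and the call was lost without GalNAc-siNC mouse 2 (adjusted p = 0.112). Ttr, its partner in plasma, had a log2 fold change of 0.66 (adjusted p = 0.0138) with the same loss without that mouse (adjusted p = 0.114). The esterase Ces1d rose by 51.0%, from 11936 ± 523 to 18026 ± 104 (adjusted p = 6.12e-07), and the lipase Lpl rose by 57.4% (adjusted p = 0.000129). Stra6l, a receptor for RBP4, had a log2 fold change of -0.28 (adjusted p = 0.00356), and Lipe, a lipase that can hydrolyze retinyl esters, had one of -0.47 (adjusted p = 0.0111), with its call lost without GalNAc-siNC mouse 2 (adjusted p = 0.0542) or GalNAc-siRnf10 mouse 3 (0.0838).

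**Figure D3:**
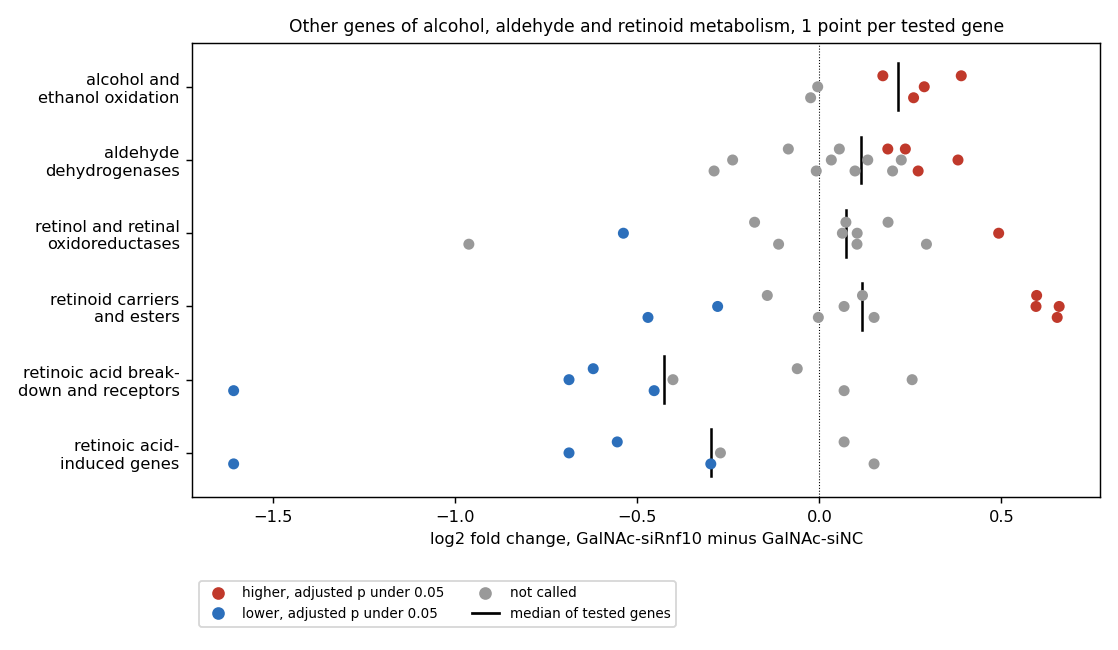
Log2 fold change of every tested pathway gene, GalNAc-siRnf10 minus GalNAc-siNC, in rows by gene group, with colours for the call in edgeR. Called genes of alcohol oxidation and aldehyde oxidation lie to the right of 0, and called genes of retinoic acid breakdown and receptors lie to the left.

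Genes of retinoic acid breakdown and its receptors gave 4 of 8 tested genes called lower and none higher (1 at an unadjusted p under 0.05 in edgeR, and none in DESeq2 or voom), with a median log2 fold change of -0.43. Cyp26a1, the main retinoic acid hydroxylase of the liver and a well-known retinoic acid target, had 190, 200, and 202 normalized counts in GalNAc-siNC mice and 113, 104, and 150 in GalNAc-siRnf10 mice. The groups did not overlap, and its log2 fold change was -0.69 (SE 0.158, edgeR adjusted p = 0.00689). The adjusted p was 0.0549 without GalNAc-siRnf10 mouse 2. Cyp26b1, a second hydroxylase, was near the lower limit of measurement, at 21.5 ± 6.52 and 6.90 ± 2.10 (log2 fold change -1.61, adjusted p = 0.030). The receptor Rara had 663, 787, and 575 normalized counts in the controls and 436, 465, and 414 in the treated mice, again without overlap (log2 fold change -0.62, adjusted p = 0.00114). Rxrg passed narrowly (-0.45, adjusted p = 0.0460), and the call was lost in DESeq2 (0.062), with the replicate block (0.0535), and without any 1 mouse other than GalNAc-siNC mouse 1 (0.0524 to 0.198). By contrast, Rxra, the main hepatic partner receptor, was at 13993 ± 640 and 13414 ± 90.7 (log2 fold change -0.06, adjusted p = 0.519), with a positive sign, 0.089, under a correction for GC content and length.

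Genes known to be induced by retinoic acid overlap the preceding group, sharing Cyp26a1, Cyp26b1, and Rarb with it, and include Dhrs3 and Lrat. Of 7 tested, 4 were called lower, and none was higher at an unadjusted p under 0.05, with a median log2 fold change of -0.30. Besides Cyp26a1, Cyp26b1, and Dhrs3, the called gene was Tgm2, a transglutaminase, at 2857, 3475, and 3054 normalized counts in the controls and 2210, 2104, and 2072 in the treated mice (log2 fold change -0.56, edgeR adjusted p = 6.95e-05). All treated mice were below all controls. Rarb, also in the list, was not called, at 24.1 ± 2.47 and 25.3 ± 5.47 (log2 fold change 0.068, edgeR adjusted p = 0.923). Without GalNAc-siNC mouse 1, the pathway genes, Dhrs3 and Lrat included, gave 15 calls higher and 10 lower.

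The Cyp26a1 promoter is printed because it holds a direct repeat of the kind searched for, which no member's promoter held. It is the RefSeq promoter at chr19:37697558-37697857 on the plus strand of GRCm38.p6. Capitals mark a direct repeat of AGTTCA with 5 bases between its copies, read on the minus strand, whose first base lies 32 bases before the start site. A repeat with this spacing of any of the half-sites searched, like or mixed, occurs in 32 of 32851 promoters (0.0974%).
Cyp26a1: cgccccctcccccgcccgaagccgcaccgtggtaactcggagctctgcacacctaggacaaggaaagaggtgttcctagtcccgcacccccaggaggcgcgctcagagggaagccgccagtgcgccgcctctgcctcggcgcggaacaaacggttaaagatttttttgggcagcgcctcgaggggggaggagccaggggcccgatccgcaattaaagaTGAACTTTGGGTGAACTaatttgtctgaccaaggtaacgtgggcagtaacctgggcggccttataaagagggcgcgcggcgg

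Marker genes of liver cell types moved as well, with 21 of 68 tested called higher and 3 lower, and their part in the changes of the 10 genes was not tested. The liver label was checked against hepatocyte markers, all 8 of which were tested, with a summed level of at least 1623230 in every mouse. Hepatocyte markers gave 3 of 8 called higher, pericentral markers 4 of 10 higher and 1 lower, and periportal markers 5 of 8 higher. The summed periportal level was 252097 to 270564 in GalNAc-siNC mice and 369635 to 372510 in GalNAc-siRnf10 mice. For the pericentral markers it was 262038 to 266192 in the controls and at least 317170 in the treated mice. Cyp2e1, named above for ethanol oxidation, made up most of the pericentral sum, with means of 180344 and 220172. Alb rose by 55.8% (edgeR adjusted p = 1.4e-07), Tat, a tyrosine aminotransferase, had a log2 fold change of 1.41 (adjusted p = 6.13e-12), and the urea cycle genes Ass1 and Cps1 had log2 fold changes of 0.84 and 0.58 (adjusted p = 5.2e-08 and 6.52e-07). Sds, a periportal serine dehydratase, had one of 0.64 (adjusted p = 1.02e-05), and Axin2, a pericentral Wnt target, had one of -0.44 (adjusted p = 0.0447), a call that was lost in DESeq2 (0.0579), voom (0.0755), GC content and length offsets (0.102, and 0.114 with the block), the block alone (0.0523), and without any 1 mouse other than GalNAc-siNC mouse 3 (0.0823 to 0.159).

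Among non-parenchymal cells, the stellate markers called higher were Colec10, Vipr1, Colec11, Reln, and Ecm1, with log2 fold changes of 0.25 to 0.50. None of 4 tested markers of activated stellate cells and none of 6 Kupffer cell markers were called in edgeR, DESeq2, or voom, and 1 of them, a Kupffer cell marker, was lower at an unadjusted p under 0.05. Sinusoidal endothelial markers gave 2 of 7 higher, Clec4g and Lyve1 (0.52 and 0.55, adjusted p = 0.00426 and 0.0414), and none lower. The call of Lyve1 was lost in DESeq2 (0.0555), voom (0.0632), library size only (0.0577), the replicate block (0.0506), and without any 1 mouse other than GalNAc-siNC mouse 3 (0.0598 to 0.174). Stab2, of the same list, was lower in every treated mouse than in every control (log2 fold change -0.26, edgeR adjusted p = 0.0544). For the other 6 genes every treated mouse was higher. Stab2 was called lower in voom (adjusted p = 0.0327) and without GalNAc-siNC mouse 1 (-0.27, 0.0239), but not in DESeq2 (0.0703). Of 5 tested cholangiocyte markers only Spp1 was called, at 1836 ± 45.7 and 982 ± 10.6 (log2 fold change -0.90, adjusted p = 8.59e-08), and of 3 tested lymphocyte and neutrophil markers only S100a9 was called, lower. For tissues that border the liver, Fabp2 of the small intestine list and Cela1 of the pancreas list were called higher (0.46 and 0.58), while Prss2, Cpa1, and Pnlip, which define pancreatic acinar cells, did not exceed the 3-count floor in any library. Of the other small intestine genes, Apoa4 was lower in every treated mouse than in every control (log2 fold change -0.24, edgeR adjusted p = 0.0555). Rbp2 and Lct did not exceed the floor, and Vil1, at 4 to 16 counts, was not tested.

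**Figure D4:**
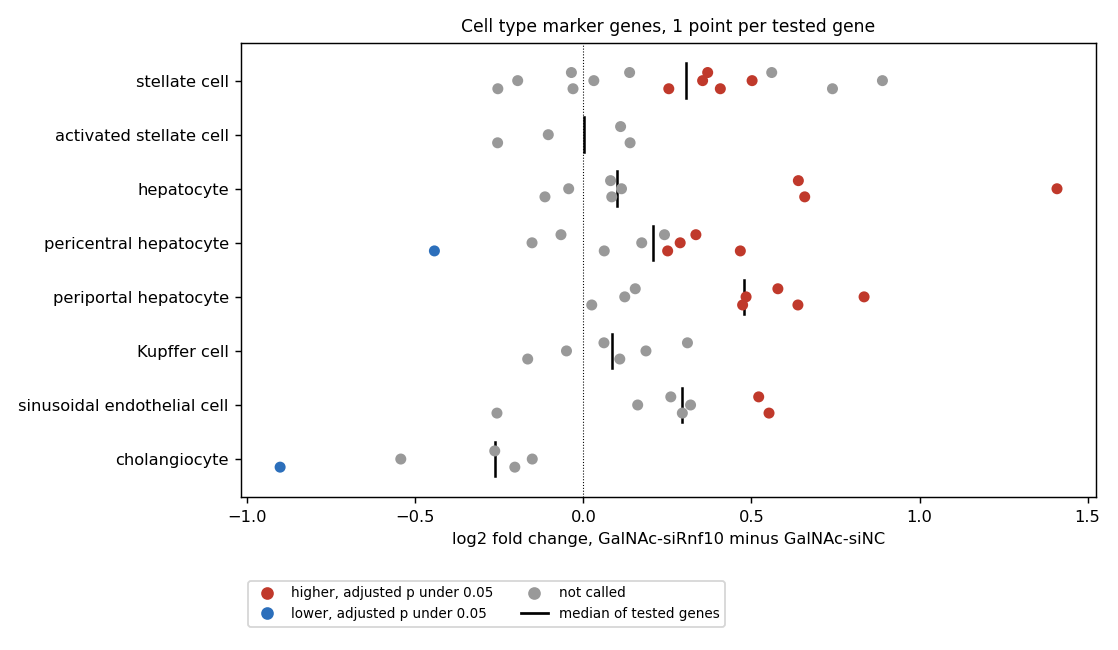
Log2 fold change of each tested marker in rows by cell type, GalNAc-siRnf10 minus GalNAc-siNC, with colours for the call in edgeR. The lymphocyte and neutrophil, small intestine, and pancreas lists are not drawn. Periportal markers reach from near 0 to the right, with a median of 0.48, and the lowest called marker drawn is Spp1.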

How the data were processed

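Liver RNA of 6 mice was sequenced as stranded mRNA libraries with paired-end reads. The authors mapped the reads with HISAT2 to GRCm38 and deposited raw counts per gene for 55487 Ensembl identifiers with the gene model lengths, and they name DESeq2 for their own test. The counting tool, annotation release, and strand setting are not given in the sources used here. Symbols and coordinates came from the GRCm38 reference annotation, with 346 identifiers without a symbol.

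Groups were taken from the labels. Counts were filtered (filterByExpr by group), scaled by TMM, and tested in edgeR 4.0.16 (R 4.3.3) with the robust quasi-likelihood test, treatment as the only covariate, and Benjamini-Hochberg adjustment over 14046 genes. The common dispersion was 0.00861, a biological coefficient of variation of 9.28%. Alternatives were RLE and upper-quartile scaling, library size only (added after seeing the data), other count filters and thresholds, DESeq2 1.42.0, limma 3.58.1 voom, the replicate number as a block, GC content and length offsets, and leaving out each mouse. The mice of both groups carry the same numbers but are different animals. Total counts were 26854377 to 33058645 per library, and floors cover counting error only.

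The 10 genes and the lists were chosen with earlier results of these data known. Named besides them were Rnf10, near copies of Rdh16, Cyp2e1, Cat, Rbp4, Cyp26a1, Rara, and Rxra, and, from the pathway lists and from the marker lists, called genes with a mean of at least 50 normalized counts, up to 8 with the largest changes in each direction. A gene that this rule also names is not reported here. Akr1a1, Aldh7a1, Aox1, Aldh1l1, Rdh7, Retsat, Cyp26b1, Rarb, Fabp2, Apoa4, Rbp2, Lct, Vil1, S100a9, Prss2, Cpa1, Pnlip, Clec4g, Stab2, and the stellate markers were named after their values were seen. On simulated counts for this comparison, 14007 genes were tested and 200 were given a change of 1 on the log2 scale. Of these 200, edgeR recovered 158 (79%), and 9 of 167 calls were unchanged genes. No member changed by as much, so this recovery does not describe changes of the members' size. Promoter sequences are from RefSeq.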

Additional observations from a re-analysis of the deposited data

How the results depend on the processing

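Adh1, Aldh1a1, Aldh3a2, and Rdh16 passed the test under each normalization, filter, tool, block, offset, and left-out mouse tried, and Lrat did not pass it under any. The calls of the others depended on the setting. Adh4 was called lower with upper-quartile scaling (-0.20, adjusted p = 0.0479), at least 10 counts in every mouse (-0.20, 0.0458), library size only (-0.24, 0.0220), limma voom (-0.18, 0.0346), GC content and length offsets (-0.35, 0.000115), and these offsets with the block (-0.35, 0.000216). The offsets also gave calls for Adh5 (0.17, adjusted p = 0.0199, and 0.17, 0.0239 with the block) and Aldh1a7 (-0.20, 0.0025, and -0.20, 0.00577 with the block). Aldh2 was called with no filter on low counts (0.22, adjusted p = 0.00142) and with offsets and block (0.35, 0.0251). With 1 mouse left out, log2 fold changes ranged from -0.22 to -0.16 for Adh4 and from -0.35 to -0.25 for Dhrs3. The sign of Rxra reversed under the offsets (0.089 with and without the block). The cause was not tested for any of these.

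Members called higher numbered 4 with any mouse left out and 0 at a change of at least 1 on the log2 scale. Members called lower numbered 2 with upper-quartile scaling, at least 10 counts, library size only, and voom, 3 with the offsets with or without the block, 0 at a change of at least 1 on the log2 scale, and 0 to 2 with a mouse left out. Over all tested genes, 943 were called higher and 1022 lower, against 502 and 540 at an adjusted p under 0.01, 134 and 93 at a change of at least 1 on the log2 scale, and 747 and 1381 with library size only, which moves the split toward lower. With a mouse left out the counts were 520 to 1395 higher and 533 to 1469 lower, the most without GalNAc-siNC mouse 1 and the fewest without GalNAc-siRnf10 mouse 1. Pathway genes called higher numbered 13, against 20 with the offsets, 6 at an adjusted p under 0.01, 0 at a change of at least 1 on the log2 scale, and 8 to 15 with a mouse left out. Those called lower, Dhrs3 included, numbered 9, against 1 at a change of at least 1 on the log2 scale and 5 to 10 with a mouse left out. Markers called lower numbered 6 with upper-quartile scaling, no filter, and library size only, and 1 to 5 with a mouse left out, and those called higher 15 to 24.

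With the replicate number as a block, 895 genes were called higher and 921 lower, 4 members higher and 1 lower, and Adh4 had an adjusted p of 0.0771. Among the named genes the block ended the calls of Rxrg (adjusted p = 0.0535), Axin2 (0.0523), and Lyve1 (0.0506). Same-numbered mice did not deviate together (r = 0.000478, 0.0461, and -0.0439 across genes), so the numbers pair no animals. Depth limits Lrat most among the members, with 124 to 214 counts per library.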
